A study of Mus musculus with 4 samples.

Results

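Solute carriers are membrane proteins that move ions, nutrients, metabolites and metals across the plasma membrane and the membranes of organelles. The expressed members of the family were followed in sciatic nerves of Zeb2 cKO and control mice at postnatal day 7. They were taken from the gene tables by symbol (Slc, a family number, the letter a and a member number). The mitochondrial carriers of family Slc25, the glial glutamate carrier Slc1a3 and the glucose carrier Slc2a1 were left out. Of 329 Slc symbols in the tables this left 283, and 145 of them had a mean of 1 FPKM or more over both libraries. These 145 genes are described by the substrate class of the carrier. They were thus chosen by their measured mean FPKM. The symbol rule also admitted Slc4a1ap, Slc7a6os, Slc9a3r1 and Slc9a3r2, whose symbols go on after the member number. These sit in the class of uncertain substrate or no carrier and are counted among the 145, all called carriers here for short. FPKM scales reads to transcript length and library size, so levels of different genes can be compared.

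Zeb2 encodes a zinc finger transcription factor that Schwann cells need to differentiate, and cKO stands for conditional knockout. Neither the Cre line nor the deleted exons are given in the labels. Both groups had a mixed strain background, and each sample was RNA of pooled sciatic nerves, with 2 samples listed per group. The tables used here hold 1 Zeb2 cKO library and 1 control library, so there is no replicate behind any value, no test between the groups is possible, and differences are described by size.

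In a peripheral nerve, carriers serve the exchange of lactate between glia and axon, the buffering of potassium, acid and neurotransmitter around the axon, and the supply of amino acids, choline and metals for myelin membrane and enzymes. MCT1, the lactate and pyruvate carrier encoded by Slc16a1, is found in Schwann cells and perineurial cells. Expression of a carrier also depends on which cells are present, since many are restricted to muscle, fat, vessel or red cell.

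Depth was estimated at 20252075 reads in Zeb2 cKO nerves and 29676707 reads in control nerves. Zeb2 itself was at 19.5 FPKM in Zeb2 cKO nerves and 34.4 FPKM in control nerves, lower as its label gives, over the whole gene. Markers of other cells differed between the libraries. All 19 markers of skeletal muscle were at least 2-fold lower in Zeb2 cKO nerves, with a summed level of 1153 FPKM against 9362 FPKM in control nerves. The 7 myelinating Schwann cell markers measured were also all lower, with sums of 1192 and 25890 FPKM in Zeb2 cKO and control nerves. Perineurial markers (5 of 6), fibroblast markers (4 of 6) and adipocyte markers (4 of the 4 above a mean of 1 FPKM) were 2-fold or more higher, with sums of 219, 4050 and 523 FPKM in Zeb2 cKO nerves against 63.4, 2328 and 215 FPKM in control nerves. Of 6 immature or nonmyelinating Schwann cell markers 4 were higher and 1 was lower, with sums of 482 FPKM in Zeb2 cKO nerves and 81.4 FPKM in control nerves, and 2 of 3 markers of the whole Schwann lineage were lower, with sums of 125 FPKM in Zeb2 cKO nerves and 367 FPKM in control nerves. Of 4 pericyte markers 2 were higher. Of 7 endothelial and 6 macrophage markers 0 were 2-fold apart, and no marker of these lists stood at 0 in either library. Endothelial markers were nonetheless higher as a sum, at 193 FPKM in Zeb2 cKO nerves and 111 FPKM in control nerves. Macrophage markers summed to 48.8 FPKM in Zeb2 cKO nerves and 46.6 FPKM in control nerves. In bulk tissue, fewer cells of a type and less RNA per cell cannot be told apart, and the part of cell content in the carrier values was not tested.

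Of the 145 carriers, 18 were 2-fold or more higher in Zeb2 cKO nerves, 9 were 2-fold or more lower, and 118 lay between. The ratio was taken as log2((FPKM Zeb2 cKO + 1)/(FPKM control + 1)), here called the log2 ratio, and 2-fold means a log2 ratio of at least 1 or at most -1. Among all 12903 genes with a mean of 1 FPKM or more, 8.59% were higher and 6.25% were lower by the same rule. The carriers' shares were 12.4% and 6.21%, so the share of lower genes lay near that background. Counts by class, by family and by list of partner genes given below are of few genes and stand beside these same shares of all genes. The median log2 ratio was 0.26 for the carriers and 0.18 for all genes, and the carriers' middle range ran from -0.03 to 0.63 (25th to 75th percentile). Dividing the Zeb2 cKO values by the median FPKM ratio of all genes, 1.16, moved the split to 12 higher and 14 lower carriers, against 6.07% and 7.43% of all genes, with a median of 0.10 beside 0.00 for all genes.

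The filter on the mean admits a gene through 1 library. Of the 145 carriers, 4 were under 1 FPKM in Zeb2 cKO nerves and 10 were under 1 FPKM in control nerves. These were bound to differ in part because of how they were admitted. Of these, 5 were 2-fold or more higher (Slc16a11, Slc6a11, Slc4a8, Slc22a4 and Slc38a3) and 3 were lower, Slc9a3 and Slc2a6 among them. Among the 131 carriers at 1 FPKM or more in both libraries, 13 were higher and 6 were lower, beside 7.19% and 4.9% of the 12092 genes chosen in the same way. The carriers just inside the limit were Slc8a3, Slc4a8 and Slc29a2 (means of 1.01, 1.06 and 1.06 FPKM). Just outside it were Slc13a3, Slc15a3 and Slc2a3 (means of 0.960, 0.956 and 0.916 FPKM). Of the 138 symbols left out by the limit, 16 were listed at 0 in both libraries, and 10 reached 1 FPKM in 1 of them. Slc7a11, the cystine-glutamate exchanger, was among those left out, at 0.357 FPKM in Zeb2 cKO nerves and 0.154 FPKM in control nerves.

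**Figure D1:**
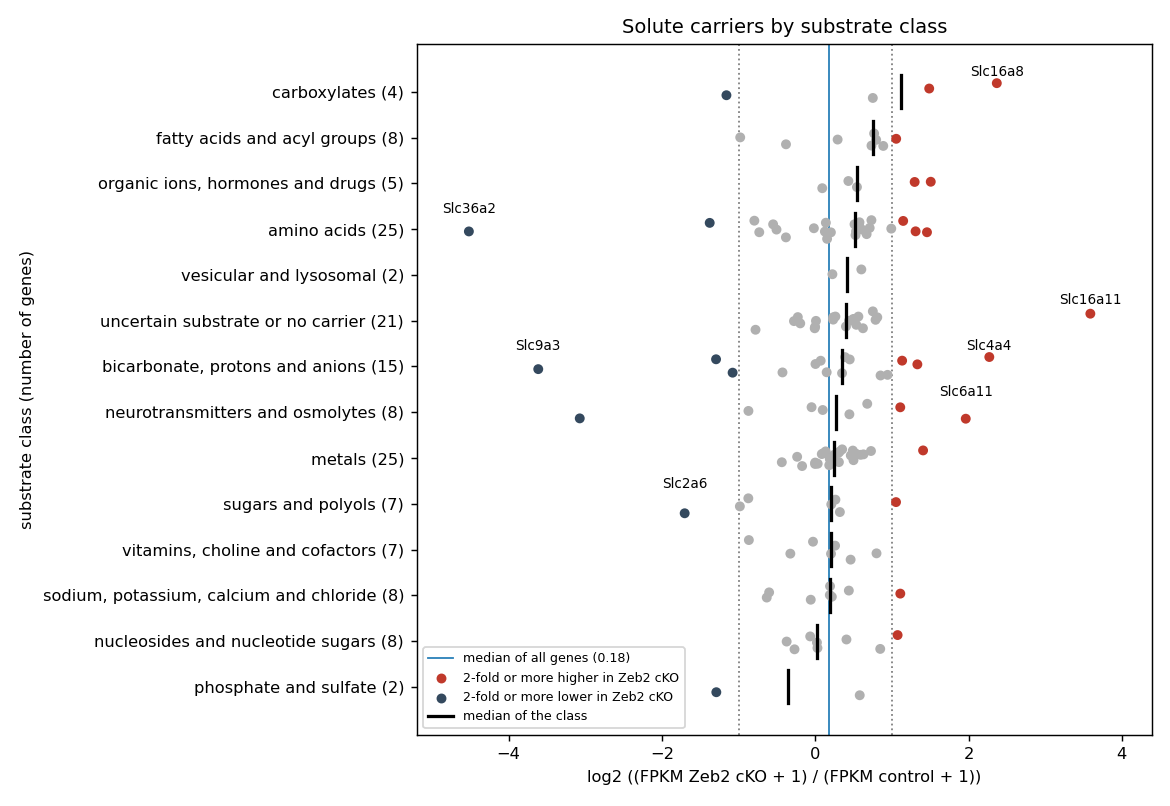
Log2 ratio of each of the 145 carriers (x axis) by substrate class (y axis, number of genes in brackets). Each point is 1 gene from 1 library per group, black bars are class medians, the blue line is the median of all genes (0.18) and dotted lines mark 2-fold. Most points lie between the dotted lines, and the far points on both sides belong to genes such as Slc36a2, Slc9a3, Slc16a11, Slc16a8 and Slc4a4.

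The carriers with the highest levels were mostly within 2-fold. The summed level of the 145 was 1996 FPKM in Zeb2 cKO nerves and 1883 FPKM in control nerves, 0.488% and 0.454% of all FPKM. Of the 10 highest carriers of each library, 6 were shared. Slc39a7, which releases zinc from the endoplasmic reticulum, ranked first in Zeb2 cKO nerves at 104 FPKM, against 73.3 FPKM in control nerves. Slc22a17, known as a receptor for lipocalin 2, was at 96.3 FPKM in Zeb2 cKO nerves and 64.8 FPKM in control nerves. Slc44a1, a choline carrier of the plasma membrane and mitochondria, ranked first in control nerves. It was at 56.3 FPKM in Zeb2 cKO nerves and 103 FPKM in control nerves, a log2 ratio of -0.87. Slc50a1, a Golgi sugar carrier, was at 66.9 FPKM in Zeb2 cKO nerves and 53.3 FPKM in control nerves, and Slc39a1, a zinc importer, at 77.1 FPKM in Zeb2 cKO nerves and 49.5 FPKM in control nerves. The second highest level of the control library, that of Slc36a2, stood apart from these and ranked 115th among carriers in Zeb2 cKO nerves.

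Amino acid carriers included the lowest log2 ratio of the 145, -4.52. Slc36a2 (chromosome 11, 54971970 to 54998579 on mm9) encodes PAT2, also called tramdorin 1, a proton-coupled carrier of small neutral amino acids found in myelinating Schwann cells of rodents. It was at 3.32 FPKM in Zeb2 cKO nerves and 98.1 FPKM in control nerves, 29.5-fold lower as a plain FPKM ratio. The 95% interval from the estimated read numbers, here called the counting interval, was 25.6 to 34.2 and covers counting error only, not differences between nerves. Its neighbour Slc36a1, which lies 19262 bases away and encodes the lysosomal PAT1, was at 5.49 FPKM in Zeb2 cKO nerves and 8.49 FPKM in control nerves. The third family member measured, Slc36a4, was at 8.06 FPKM in Zeb2 cKO nerves and 7.30 FPKM in control nerves. Slc36a2 thus made up 19.7% of the summed Slc36 level in Zeb2 cKO nerves and 86.1% in control nerves. All 7 myelinating Schwann cell markers were lower beside it, and their part in the value was not tested.

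Of the 25 amino acid and peptide carriers, 3 were 2-fold or more higher and 2 were lower, where 8.59% and 6.25% of all genes were. The median log2 ratio was 0.51. It fell to 0.13 with a mean of at least 5 FPKM and to 0.20 with only the top transcript row of each symbol. Slc7a2, a carrier of arginine and other cationic amino acids, was at 6.18 FPKM in Zeb2 cKO nerves and 17.6 FPKM in control nerves, 2.86-fold lower. The glutamine carriers of family Slc38 went in different directions. Slc38a3 was at 4.41 FPKM in Zeb2 cKO nerves and 0.968 FPKM in control nerves, 4.55-fold higher. Slc38a1 was at 4.10 FPKM in Zeb2 cKO nerves and 1.30 FPKM in control nerves, 3.15-fold higher. Its neighbour on chromosome 15, Slc38a2, 44478 bases away, was more abundant and was at 36.7 FPKM in Zeb2 cKO nerves against 61.5 FPKM in control nerves. Slc15a2, the peptide carrier PEPT2, was at 15.8 FPKM in Zeb2 cKO nerves and 5.79 FPKM in control nerves, 2.73-fold higher as a sum of 2 transcripts. That fold depends on how Cufflinks divided shared reads between them. The longer transcript alone was at 6.30 FPKM in Zeb2 cKO nerves and 3.50 FPKM in control nerves. Slc1a4, which exchanges serine and alanine, lay just under the 2-fold limit at 8.78 FPKM in Zeb2 cKO nerves and 3.92 FPKM in control nerves (log2 ratio 0.99). Slc3a2, the heavy chain of CD98 that pairs with light chains of family Slc7, was at 35.7 FPKM in Zeb2 cKO nerves and 62.7 FPKM in control nerves. Its light chain Slc7a5, the carrier LAT1 for large neutral amino acids, was at 17.7 FPKM in Zeb2 cKO nerves and 16.0 FPKM in control nerves. Both partners lay within 2-fold, and so did all 6 measured genes of a list of amino acid response and osmotic regulators, among them Atf4 at 91.1 FPKM in Zeb2 cKO nerves and 96.3 FPKM in control nerves.

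Of the carriers of GABA, the inhibitory transmitter, Slc6a11 and Slc6a13 were higher. Slc6a11, the GABA carrier of astrocytes (chromosome 6, 114081235 to 114199880), was at 4.08 FPKM in Zeb2 cKO nerves and 0.302 FPKM in control nerves. It was 13.5-fold higher (counting interval 9.87 to 18.9), and about 44 reads lay behind the control value. Slc6a13, GAT2, which also carries taurine, was at 7.00 FPKM in Zeb2 cKO nerves and 2.71 FPKM in control nerves, 2.59-fold higher, and lost its call after rescaling to the median gene.

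The carriers of taurine (Slc6a6), myo-inositol and creatine were within 2-fold by the log2 ratio. Slc6a6, the taurine carrier, was at 19.4 FPKM in Zeb2 cKO nerves and 20.1 FPKM in control nerves. Slc5a3, the myo-inositol carrier whose locus overlaps Mrps6, was at 4.80 FPKM in Zeb2 cKO nerves and 4.42 FPKM in control nerves. Slc6a8, the creatine carrier, which muscle also expresses, was at 25.6 FPKM in Zeb2 cKO nerves and 47.7 FPKM in control nerves, a log2 ratio of -0.87. It passed -1 when values were rescaled to the median gene (-1.07). Of the 8 transmitter and osmolyte carriers, 2 were higher and 1 was lower, and the median log2 ratio was 0.27.

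**Figure D2:**
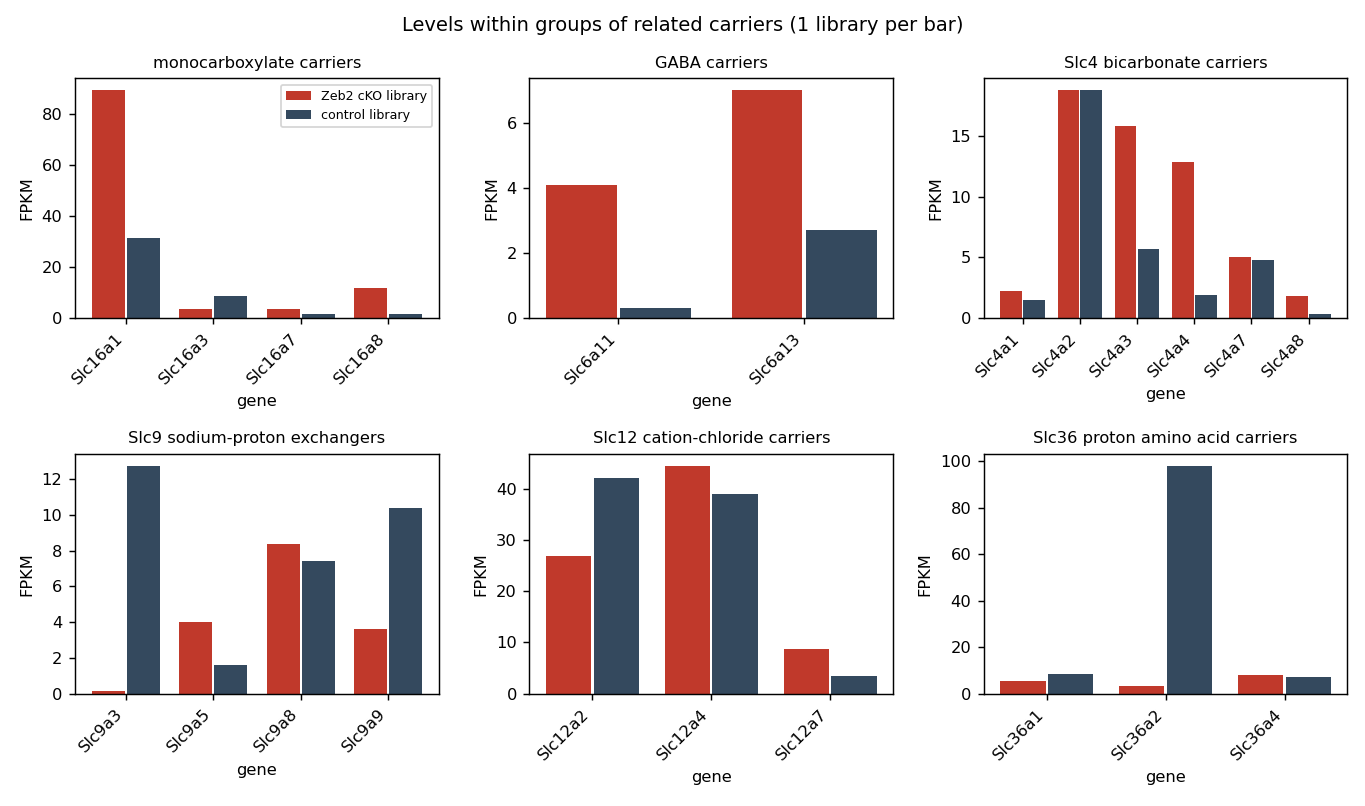
FPKM (y axis, linear from 0, a scale of its own in each panel) of related carriers (x axis), with the Zeb2 cKO library in red at the left and the control library in dark blue at the right of each pair. Bars are single libraries and have no error bars. Slc36a2 and Slc9a3 are far higher in control nerves, at 98.1 and 12.8 FPKM, while Slc16a1 is the highest monocarboxylate carrier in both libraries.

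Monocarboxylate carriers move lactate, pyruvate and ketone bodies together with protons. Slc16a1 (chromosome 3, 104442591 to 104462385) was at 89.6 FPKM in Zeb2 cKO nerves and 31.3 FPKM in control nerves, 2.86-fold higher, with an interval from counting error of 2.76 to 2.96. Beside it, 5 of 6 perineurial markers were 2-fold or more higher, and their part in the value was not tested. Slc16a8, MCT3, known from retinal pigment epithelium (chromosome 15, 79081446 to 79085178), was at 11.7 FPKM in Zeb2 cKO nerves and 1.46 FPKM in control nerves, 8.03-fold higher. Slc16a7, MCT2, was at 3.52 FPKM in Zeb2 cKO nerves and 1.69 FPKM in control nerves. Slc16a3, MCT4, the lactate exporter of glycolytic muscle fibres, was at 3.32 FPKM in Zeb2 cKO nerves and 8.64 FPKM in control nerves, 2.60-fold lower. Beside it, all 19 muscle markers were lower, and their part was not tested. The 4 carriers summed to 108 FPKM in Zeb2 cKO nerves and 43.1 FPKM in control nerves, and Slc16a1 was 82.9% and 72.7% of that sum. The partner list held Bsg, the chaperone that brings MCT1 to the membrane, at 416 FPKM in Zeb2 cKO nerves and 302 FPKM in control nerves. Emb, the other chaperone, was at 2.51 FPKM in Zeb2 cKO nerves and 0.756 FPKM in control nerves, and the lactate dehydrogenase genes Ldha and Ldhb were at 137 and 140 FPKM in Zeb2 cKO nerves against 231 and 249 FPKM in control nerves. Of these 4 partners, 0 reached 2-fold by the log2 ratio, which was 0.999 for Emb, whose plain FPKM ratio was 3.32.

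Other members of family Slc16 carry different substrates. Slc16a11, a family member of uncertain substrate (chromosome 11, 70027412 to 70029916), had the highest log2 ratio of all 145 carriers, 3.59. It was at 14.8 FPKM in Zeb2 cKO nerves and 0.309 FPKM in control nerves, 47.7-fold higher (counting interval 30.4 to 79.4), and about 19 reads lay behind the control value. Its neighbour Slc16a13, 377 bases away, was at 5.996 FPKM in Zeb2 cKO nerves and 3.15 FPKM in control nerves. Slc16a9 was at 1.60 FPKM in Zeb2 cKO nerves and 0.783 FPKM in control nerves. Of the 11 members of the family measured, 10 had a log2 ratio above 0, which 67.6% of all genes also had. In the family 4 were 2-fold or more higher and 1 was lower, where 8.59% and 6.25% of all genes were. Slc16a11 was among the 4 and was under 1 FPKM in control nerves, so its call depends in part on how it was admitted.

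Acid and bicarbonate carriers went both ways. Slc4a4, the sodium bicarbonate cotransporter NBCe1 of astrocytes and kidney (chromosome 5, 89316285 to 89668681), was at 12.8 FPKM in Zeb2 cKO nerves and 1.87 FPKM in control nerves, 6.88-fold higher. Slc4a3, the chloride-bicarbonate exchanger AE3, was at 15.8 FPKM in Zeb2 cKO nerves and 5.66 FPKM in control nerves, 2.79-fold higher, and Slc4a8, a sodium-driven exchanger, at 1.82 FPKM in Zeb2 cKO nerves and 0.287 FPKM in control nerves, 6.36-fold higher. The widely expressed exchanger AE2 (Slc4a2) was at 18.8 FPKM in both libraries. Slc4a1, the anion exchanger of red cells, was at 2.24 FPKM in Zeb2 cKO nerves and 1.47 FPKM in control nerves. Beside it, 3 of the 4 erythroid markers above a mean of 1 FPKM were 2-fold or more higher.

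Sodium-proton exchangers of family Slc9 held 3 of the 9 lower carriers. Slc9a3, the exchanger NHE3 known from kidney and gut (chromosome 13, 74258963 to 74303512), was at 0.123 FPKM in Zeb2 cKO nerves and 12.8 FPKM in control nerves. It was 103-fold lower, with a counting interval of 51.0 to 250, since about 7 reads lie behind the Zeb2 cKO value. The endosomal exchanger Slc9a9 was at 3.64 FPKM in Zeb2 cKO nerves and 10.4 FPKM in control nerves, 2.85-fold lower. Slc9a5, an exchanger of the plasma membrane, was at 3.98 FPKM in Zeb2 cKO nerves and 1.59 FPKM in control nerves (log2 ratio 0.94). Slc9a3r1 and Slc9a3r2, which match the symbol rule, are scaffold proteins that bind NHE3 and not carriers. They were at 29.3 and 27.2 FPKM in Zeb2 cKO nerves against 29.4 and 33.1 FPKM in control nerves, so the scaffolds stayed within 2-fold. Of the 15 bicarbonate, proton and anion carriers, 3 were higher and 3 lower, with a median of 0.35. Among them Slc4a8 and Slc9a3 were each under 1 FPKM in 1 library, so their calls depend in part on how they were admitted.

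Carbonic anhydrases, which supply bicarbonate and protons to these carriers, were followed as a partner list of 10. Among 8 with a mean of 1 FPKM or more, 3 were higher by 2-fold and 1 was lower, where 8.59% and 6.25% of all genes were. Of the 3, Car12 was under 1 FPKM in control nerves, so its call depends in part on how it was admitted. Car2 was at 28.7 FPKM in Zeb2 cKO nerves and 3.40 FPKM in control nerves, 8.45-fold higher. Car12 was at 7.38 FPKM in Zeb2 cKO nerves and 0.296 FPKM in control nerves, and Car13 at 7.34 FPKM in Zeb2 cKO nerves and 2.39 FPKM in control nerves, while Car14 was at 6.98 FPKM in Zeb2 cKO nerves and 16.9 FPKM in control nerves, 2.42-fold lower.

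Cation-chloride cotransporters set cell volume and chloride. Slc12a2, the sodium-potassium-chloride cotransporter NKCC1, was at 26.8 FPKM in Zeb2 cKO nerves and 42.1 FPKM in control nerves, a log2 ratio of -0.63. Slc12a4, KCC1, was at 44.6 FPKM in Zeb2 cKO nerves and 38.9 FPKM in control nerves. Slc12a7, KCC4, was the member 2-fold apart, at 8.77 FPKM in Zeb2 cKO nerves and 3.53 FPKM in control nerves. Its log2 ratio of 1.11 became 0.92 after rescaling to the median gene. Among 5 measured kinases that control these cotransporters, Stk39 (SPAK) was at 13.0 FPKM in Zeb2 cKO nerves and 51.5 FPKM in control nerves, 3.96-fold lower. Wnk4 was at 4.05 FPKM in Zeb2 cKO nerves and 1.35 FPKM in control nerves, 3.01-fold higher, and Wnk1, Wnk2 and Oxsr1 were within 2-fold. Slc8a3, a sodium-calcium exchanger of muscle and neurons, was at 0.597 FPKM in Zeb2 cKO nerves and 1.42 FPKM in control nerves.

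The sodium pump drives these and most other sodium-coupled carriers. Among its 8 subunits and regulators in the list, 2 were higher by 2-fold and 0 were lower, where 8.59% and 6.25% of all genes were. Atp1b2, the glial beta subunit, was at 133 FPKM in Zeb2 cKO nerves and 24.1 FPKM in control nerves, 5.52-fold higher. Fxyd1, a regulator of the pump, was at 228 FPKM in Zeb2 cKO nerves and 112 FPKM in control nerves, 2.04-fold higher. Its log2 ratio of 1.02 lay close to the limit.

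Of 25 metal carriers, 24 stayed within 2-fold, the median log2 ratio was 0.25, and the lowest value was -0.44. Slc39a14, ZIP14, which imports zinc, iron and manganese, was at 11.3 FPKM in Zeb2 cKO nerves and 3.64 FPKM in control nerves, 3.11-fold higher. Slc39a6, a zinc importer, was at 20.1 FPKM in Zeb2 cKO nerves and 11.7 FPKM in control nerves, and Slc40a1, the iron exporter ferroportin, at 6.11 FPKM in Zeb2 cKO nerves and 5.70 FPKM in control nerves. In the partner list of zinc and iron handling, 3 of 12 genes were 2-fold or more lower and 2 were higher, where 6.25% and 8.59% of all genes were. The lower ones were the zinc-binding metallothioneins Mt1, Mt2 and Mt3, at 106, 80.0 and 44.98 FPKM in Zeb2 cKO nerves against 305, 218 and 146 FPKM in control nerves. The higher ones were the ferroxidases Cp, ceruloplasmin, at 33.4 FPKM in Zeb2 cKO nerves and 11.1 FPKM in control nerves, and Heph, hephaestin, at 5.24 FPKM in Zeb2 cKO nerves and 2.07 FPKM in control nerves.

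Sugar and phosphate carriers included a few lower members. Slc2a6, a lysosomal member of the facilitative sugar carriers, was at 0.339 FPKM in Zeb2 cKO nerves and 3.36 FPKM in control nerves, 9.91-fold lower, with about 18 reads behind the Zeb2 cKO value. Slc2a4, the insulin-regulated carrier of muscle and fat, was at 4.93 FPKM in Zeb2 cKO nerves and 9.86 FPKM in control nerves, a log2 ratio of -0.87 (-1.05 after rescaling). Muscle markers were lower and adipocyte markers higher beside it. Slc37a4, which brings glucose 6-phosphate into the endoplasmic reticulum, was at 6.82 FPKM in Zeb2 cKO nerves and 14.5 FPKM in control nerves (log2 ratio -0.98, and -1.16 after rescaling). Slc2a10, a sugar carrier family member mutated in human arterial tortuosity syndrome, was at 5.51 FPKM in Zeb2 cKO nerves and 2.14 FPKM in control nerves, 2.58-fold higher. Slc20a2, the phosphate importer PiT2, whose locus overlaps AI316807, was at 16.5 FPKM in Zeb2 cKO nerves and 41.7 FPKM in control nerves, 2.53-fold lower, and its paralog Slc20a1 at 14.3 FPKM in Zeb2 cKO nerves and 9.25 FPKM in control nerves.

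Carriers of organic ions and nucleosides had members 2-fold or more higher. In the class of fatty acids and acyl groups, which includes carnitine carriers, Slc22a4 was the only higher call. Slc27a6 lay just short of 2-fold lower by the log2 ratio. Slc22a3, the organic cation carrier OCT3, was at 8.40 FPKM in Zeb2 cKO nerves and 2.31 FPKM in control nerves, 3.64-fold higher. Slc29a1, the nucleoside carrier ENT1, was at 68.3 FPKM in Zeb2 cKO nerves and 31.9 FPKM in control nerves, 2.14-fold higher, with a log2 ratio of 1.07 that became 0.87 after rescaling. Slc43a3, a purine base carrier, was at 28.1 FPKM in Zeb2 cKO nerves and 15.1 FPKM in control nerves. The cluster of Slc22a5, Slc22a21 and Slc22a4 on chromosome 11 (53678044 to 53841592) had log2 ratios of 0.80, 0.73 and 1.06. Slc22a5, the carnitine carrier, was the most abundant of them at 14.9 FPKM in Zeb2 cKO nerves and 8.15 FPKM in control nerves. Slc22a4, which carries ergothioneine, was at 1.97 FPKM in Zeb2 cKO nerves and 0.429 FPKM in control nerves, 4.59-fold higher, and lost its call after rescaling. Slc27a1, a fatty acid transport protein, was at 55.6 FPKM in Zeb2 cKO nerves and 32.2 FPKM in control nerves, Slc27a3 at 4.90 FPKM in Zeb2 cKO nerves and 2.19 FPKM in control nerves, and Slc27a6 at 1.63 FPKM in Zeb2 cKO nerves against 4.19 FPKM in control nerves. The log2 ratio of Slc27a6 was -0.98, and it passed -1 after rescaling (-1.11) and with a pseudocount of 0.1 FPKM (-1.31), while its plain FPKM ratio was 2.56-fold lower.

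Vitamin, choline and vesicular carriers had no member 2-fold apart by the log2 ratio with a pseudocount of 1 FPKM. Slc44a1, described above, passed -1 after rescaling to the median gene (-1.07). Slc46a1, the proton-coupled folate carrier, was at 4.29 FPKM in Zeb2 cKO nerves and 2.04 FPKM in control nerves, with a log2 ratio of 0.80 that became 1.04 with a pseudocount of 0.1 FPKM. Slc23a2, which carries ascorbate, was at 9.13 FPKM in Zeb2 cKO nerves and 6.35 FPKM in control nerves. Slc17a5, the lysosomal sialic acid exporter, was at 8.16 FPKM in Zeb2 cKO nerves and 6.84 FPKM in control nerves. Slc18a2, the vesicular monoamine carrier that rodent mast cells also use, was at 2.33 FPKM in Zeb2 cKO nerves and 1.20 FPKM in control nerves. Beside it, 2 of 4 mast cell markers were 2-fold or more higher. In the class of uncertain substrates and adaptors, 20 of 21 genes stayed within 2-fold, with Slc38a6 at 6.93 FPKM in Zeb2 cKO nerves and 3.52 FPKM in control nerves and Slc22a15 at 1.90 FPKM in Zeb2 cKO nerves and 0.683 FPKM in control nerves.

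**Figure D3:**
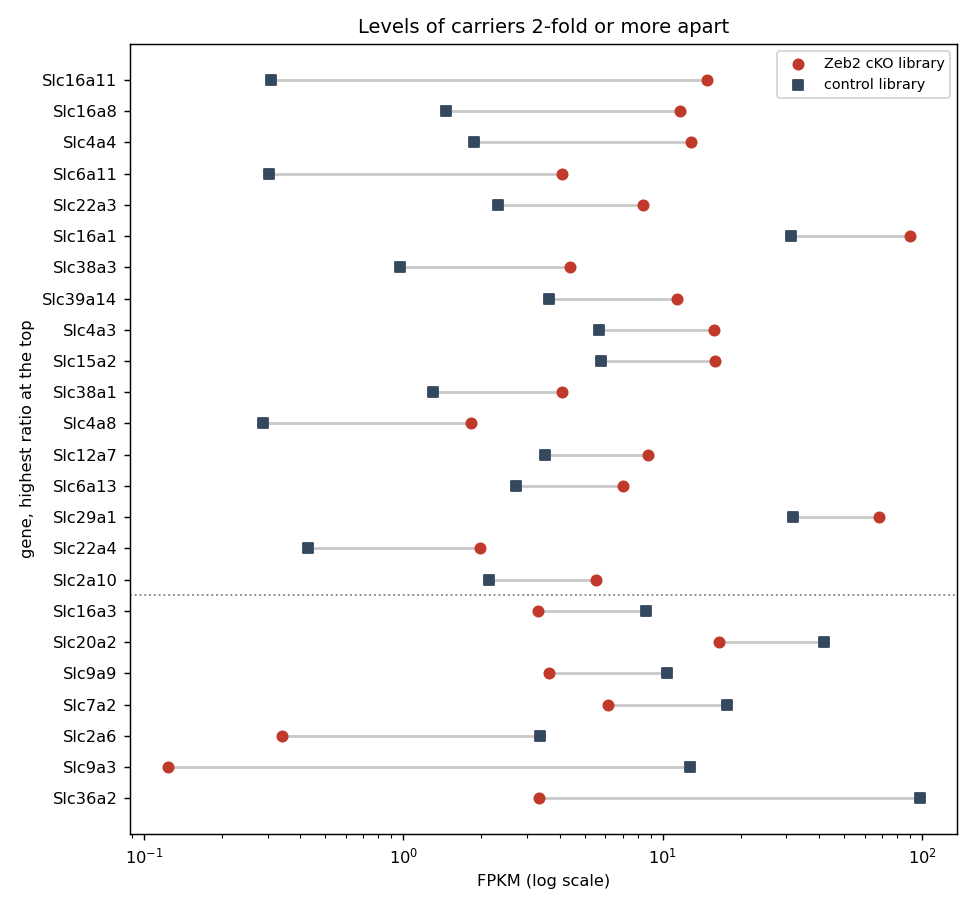
FPKM (x axis, log scale) of 24 of the 27 carriers 2-fold or more apart (y axis, ordered by log2 ratio), with circles for the Zeb2 cKO library and squares for the control library. The 17 genes above the dotted line were higher and the 7 below it lower in Zeb2 cKO nerves. Of the higher genes drawn, only Slc16a1 and Slc29a1 exceed 20 FPKM in any library, and the widest gaps are those of Slc9a3, Slc16a11 and Slc36a2.

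Several carriers are listed with more than 1 transcript, and their transcripts did not always keep their proportions. Of 36 carriers with 2 or more transcripts, 15 shifted by less than 10 percentage points between the libraries and 14 shifted by 20 points or more. The same shares were not computed over all genes, so these counts show no trait particular to carriers. Low genes such as Slc8a3 are among the 14. Slc39a14 shifted most. Its transcript of 4893 bases was at 0.00600 FPKM in Zeb2 cKO nerves and 1.97 FPKM in control nerves. A transcript of 4927 bases, labelled a in the plot of transcripts, was at 4.79 FPKM in Zeb2 cKO nerves and 0.0152 FPKM in control nerves, and the other transcript of that length was at 6.52 FPKM in Zeb2 cKO nerves and 1.66 FPKM in control nerves. Slc4a4 had its transcript of 7395 bases at 7.54 FPKM in Zeb2 cKO nerves and 0.344 FPKM in control nerves, 58.7% and 18.4% of the gene. Its transcript of 7465 bases was at 5.10 FPKM in Zeb2 cKO nerves and 1.52 FPKM in control nerves. Slc39a7 stayed within 2-fold as a gene, but its longer transcript of 2393 bases was at 78.2 FPKM in Zeb2 cKO nerves and 32.2 FPKM in control nerves, while that of 2108 bases was at 25.8 FPKM in Zeb2 cKO nerves and 41.1 FPKM in control nerves. Slc15a2 had a short transcript of 1087 bases at 9.54 FPKM in Zeb2 cKO nerves and 2.29 FPKM in control nerves and a long transcript of 4007 bases at 6.30 FPKM in Zeb2 cKO nerves and 3.50 FPKM in control nerves. Cufflinks divides shared reads among transcripts by estimation, and no error of that division is in the tables, so these shares are descriptions.

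**Figure D4:**
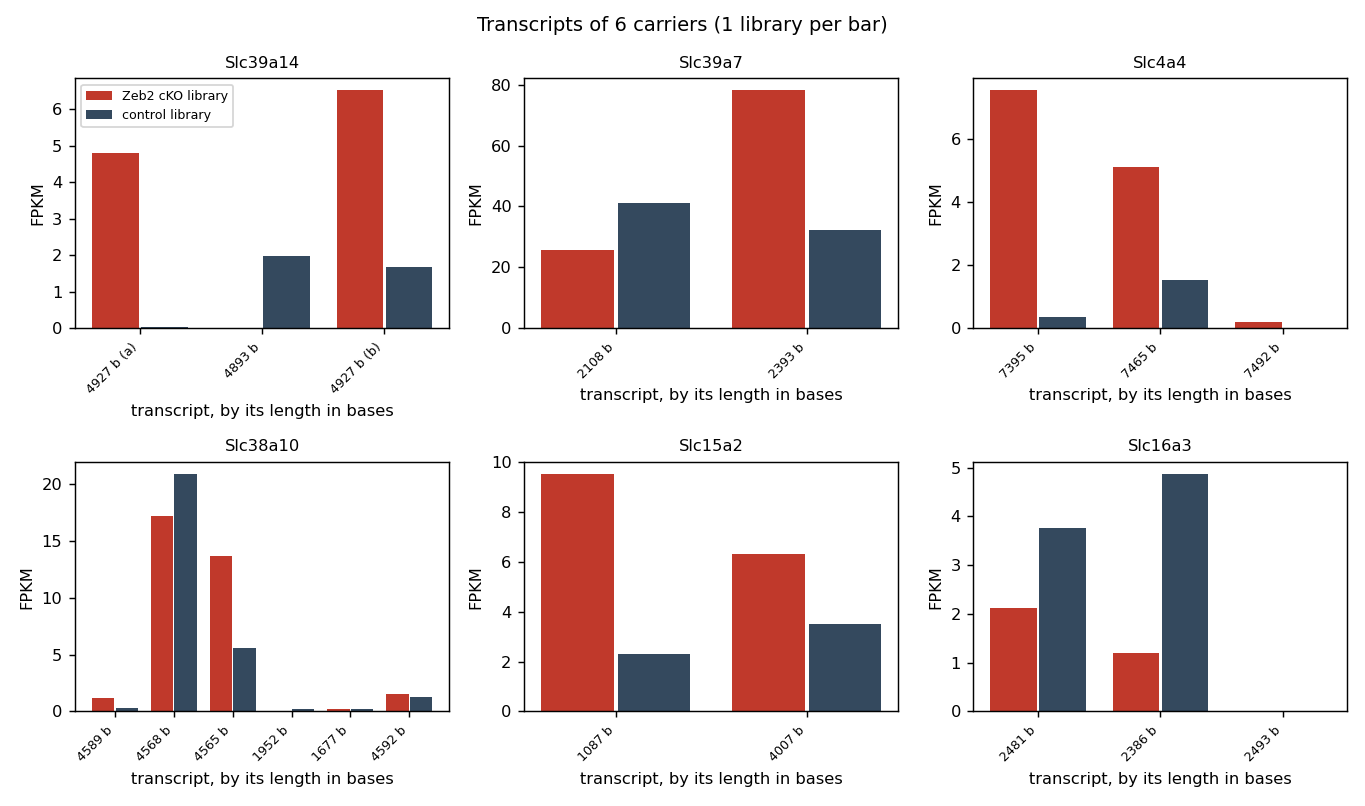
FPKM (y axis, linear from 0) of each listed transcript of 6 carriers (x axis, named by transcript length in bases), with the Zeb2 cKO library in red at the left and the control library in dark blue at the right of each pair. Bars are single libraries. In all of them but Slc38a10 a different transcript is the highest in each library.

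Promoter windows of the most different carriers are shown because Zeb2 is known to bind the motif CACCTG. Windows run from 250 bases before to 50 bases after a transcript start and come from RefSeq on build GRCm38.p6, while all other positions given here are on mm9. The motif was searched on both strands, and on the second strand it reads CAGGTG. Of the 27 carriers 2-fold apart, 18 matched a window by symbol and could be read, 14 of them higher and 4 lower. The 4 highest and the 2 lowest ratios among those with a single window are printed 5′ to 3′ in the direction of the gene, with the motif in capitals.
Slc16a11 (chr11:70213660-70213959, plus strand): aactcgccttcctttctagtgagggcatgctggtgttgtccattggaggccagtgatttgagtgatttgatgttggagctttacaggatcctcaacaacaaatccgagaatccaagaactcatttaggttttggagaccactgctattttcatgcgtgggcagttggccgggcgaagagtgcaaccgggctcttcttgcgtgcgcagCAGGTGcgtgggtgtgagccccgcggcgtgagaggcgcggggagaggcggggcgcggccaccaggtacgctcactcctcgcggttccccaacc
Slc16a8 (chr15:79254699-79254998, minus strand): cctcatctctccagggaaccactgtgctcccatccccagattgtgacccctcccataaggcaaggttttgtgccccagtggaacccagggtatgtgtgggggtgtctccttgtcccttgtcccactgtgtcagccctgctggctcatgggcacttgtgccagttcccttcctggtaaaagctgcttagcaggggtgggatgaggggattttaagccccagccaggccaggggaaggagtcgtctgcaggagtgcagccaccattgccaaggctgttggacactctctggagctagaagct
Slc6a11 (chr6:114130991-114131290, plus strand): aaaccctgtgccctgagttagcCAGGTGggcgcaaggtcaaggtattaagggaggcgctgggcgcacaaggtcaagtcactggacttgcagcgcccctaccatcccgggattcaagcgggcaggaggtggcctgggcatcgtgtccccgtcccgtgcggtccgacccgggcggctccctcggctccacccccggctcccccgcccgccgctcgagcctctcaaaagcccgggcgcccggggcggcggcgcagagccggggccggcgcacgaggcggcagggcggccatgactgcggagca
Slc22a3 (chr17:12507655-12507954, minus strand): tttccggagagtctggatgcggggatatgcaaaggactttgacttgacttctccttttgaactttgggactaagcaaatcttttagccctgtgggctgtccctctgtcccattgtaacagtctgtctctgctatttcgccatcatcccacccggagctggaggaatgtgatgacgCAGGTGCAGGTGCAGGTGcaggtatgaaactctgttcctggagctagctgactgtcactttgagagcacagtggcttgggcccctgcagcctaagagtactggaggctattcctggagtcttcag
Slc2a6 (chr2:27027949-27028248, minus strand): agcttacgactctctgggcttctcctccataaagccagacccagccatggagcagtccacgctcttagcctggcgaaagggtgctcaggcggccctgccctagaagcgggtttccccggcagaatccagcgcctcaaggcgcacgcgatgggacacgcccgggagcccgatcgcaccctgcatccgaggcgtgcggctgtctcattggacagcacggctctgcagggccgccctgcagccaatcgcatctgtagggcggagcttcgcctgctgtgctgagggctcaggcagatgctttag
Slc9a3 (chr13:74121163-74121462, plus strand): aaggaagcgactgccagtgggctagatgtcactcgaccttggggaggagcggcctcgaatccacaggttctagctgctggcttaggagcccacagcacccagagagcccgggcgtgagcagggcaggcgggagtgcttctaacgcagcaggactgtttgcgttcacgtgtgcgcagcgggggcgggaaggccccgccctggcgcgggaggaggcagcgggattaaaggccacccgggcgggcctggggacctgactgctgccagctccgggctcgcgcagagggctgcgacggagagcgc

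In these windows Slc16a11 and Slc6a11 held 1 match each, Slc22a3 held 3 adjoining matches, and Slc16a8, Slc2a6 and Slc9a3 held none. The RefSeq start behind the Slc9a3 window was not found in another gene annotation (GENCODE), and the start used in the nerve is not known. Of the higher carriers with a single window, 5 of 10 held the motif, and of the lower ones 0 of 4. Among all 22862 genes with a single window, 20.02% held it, and among the 149 windows of the measured carriers 20.1%. The 149 count windows and not genes, and they include carriers with several windows and the 2-fold carriers themselves. A match is a string of letters and not a binding site, and binding was not measured. The counts of 5 of 10 and 0 of 4 are of few genes and say only whether these letters are in these windows.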

How the data were processed

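Pooled sciatic nerve RNA of Zeb2 cKO and control mice was extracted with Trizol and made into TruSeq libraries, per the labels' protocols. Per the submitters' processing notes, the authors used CASAVA, TopHat, Cufflinks and Cuffdiff on mm9, without versions, and their settings are not stated there. The deposited values are FPKM per the file headers, 1 row for each transcript, and the rows carry RefSeq names. The deposited coverage is a signal of reads over each base of a transcript, before any scaling for depth, as its values show. Since the labels name the same table for both numbered samples, tables were matched to groups and not to samples.

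Rows with a status other than OK in either library (295 of 28107) were left out and FPKM was summed per symbol, which left 21965 genes, 12903 of them with a mean of at least 1 FPKM. A pseudocount of 1 FPKM was added before the log2 ratio, which understates differences of low genes. Folds are plain FPKM ratios. Reads were estimated as coverage times length divided by 52.7 bases, the median of the lowest cluster of such products (474 values). Counting intervals (95%, Clopper-Pearson on these reads) were given for single-transcript genes and cover counting error only. FPKM holds no whole counts, so no count model was used, and 1 library per group allowed no test. Overlapping genes cannot be told apart, since the tables separate no strands.

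The members, substrate classes, partner lists and marker lists were chosen with earlier results of these data known. Named genes were the 10 highest and 10 lowest log2 ratios, the 10 highest means, the 3 largest absolute ratios of each class, genes next to the limit, 15 genes of known role, and the 3 largest ratios of each partner list. Other carriers and partners were named after their values were seen, as was the choice of promoters, where windows on 1 chromosome were not used. Slc2a8, Slc39a9 and Slc26a11 were moved to the class of their family after their values were seen, and none of the 3 was 2-fold apart. Starts were converted to count from 1. In 3284 rows the converted span equalled the transcript length, and in 0 rows it was 1 base off. Alternatives were other pseudocounts, filters, fold thresholds, scaling, status and row choice. Code was checked on simulated data, with Python 3.11.15, pandas 2.3.3 and SciPy 1.17.1. Some genes are not reported here.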

Additional observations from a re-analysis of the deposited data

How the results depend on the processing

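No paired analysis was possible because only 1 Zeb2 cKO and 1 control library were analysed, which also left nothing to leave out. The 18 higher and 9 lower carriers became 4 and 5 with a pseudocount of 5 FPKM, 41 and 19 at 1.5-fold, and 4 and 4 at 3-fold. The share of higher carriers, above that of all genes at 2-fold, was below it with a pseudocount of 5 FPKM (2.76% against 3.70%) and at 3-fold (2.76% against 3.11%), and above it at 1.5-fold (28.3% against 19.7%). The shares of lower carriers were 3.45% against 4.10%, 2.76% against 3.54%, and 13.1% against 9.81%. With a mean of at least 5 FPKM, 11 of 93 carriers were higher and 8 were lower. These were 11.8% and 8.60%, against 8.12% and 6.79% of all genes. The median log2 ratio of 0.26 became 0.15, beside 0.15 for all genes. Without a filter the median was 0.086, beside 0.032 for all genes. Rescaled to the median gene, 14 carriers were lower and the median was 0.10. Of the 27 carriers 2-fold apart, 21 kept their call after rescaling. Slc12a7, Slc22a4, Slc29a1, Slc2a10, Slc38a1 and Slc6a13 lost it, all 9 lower carriers kept it, and Slc27a6, Slc37a4, Slc2a4, Slc44a1 and Slc6a8 became lower calls. With a pseudocount of 5 FPKM 9 kept it, and with a pseudocount of 0.1 FPKM all 27. The latter gave 24 higher and 12 lower in all, 16.6% and 8.28% of the carriers against 12.1% and 7.04% of all genes. Slc22a15, Slc27a3 and Slc46a1 were among the added higher ones, and Slc8a3, Slc27a6 and Slc37a4 were the added lower ones. Taking the top transcript row of each symbol removed Slc38a1 alone and put Slc39a7 at a log2 ratio of 1.25. Using all rows whatever their status changed no call. Median log2 ratios of several classes turned sign. Nucleosides and nucleotide sugars moved to -0.17 after rescaling, and vitamins and choline to -0.25 with the top row. With a mean of at least 5 FPKM, transmitters and osmolytes moved to -0.87, sugars to -0.30 and vitamins to -0.32. Phosphate and sulfate carriers moved from -0.35 to 0.015 without a filter. Leaving out carriers of uncertain substrate and adaptors, an alternative chosen after the data were examined, changed neither count by more than 1.5 times. That class held only 1 higher and 0 lower genes, so this outcome was fixed in advance and shows no stability of the counts. Depth limits the lowest values most, since Slc9a3 and Slc2a6 in the Zeb2 cKO library and Slc16a11 in the control library rest on about 7, 18 and 19 reads.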
